A study of Mus musculus with 12 samples.

Results

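Peroxisome biogenesis and metabolism was followed here as a set of 39 mouse genes across 4 groups of kidney proximal tubule samples. The genes were listed by name for building the organelle, for fatty acid oxidation inside it, for moving acyl groups in and out, for ether lipid synthesis and for other peroxisomal metabolism. A probe set entered only if the annotation of the array gave it 1 gene symbol, and each gene was read from its probe set with the highest mean over the 12 arrays. All 39 of the 39 listed genes were found and passed the filter for low values, above 4 (log2) on at least 3 arrays; they stand among 9744 genes tested. Each of the 39 read above 4 on all 12 arrays. Catalase and the peroxisomal oxidases were not among the 39 and are given separately.

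The peroxisome is a single-membrane organelle that shortens very long-chain and branched-chain fatty acids, starts ether lipid synthesis and breaks down the hydrogen peroxide its oxidases make. Its matrix enzymes are made in the cytosol and imported by a set of proteins called peroxins (Pex), while other peroxins build the membrane or divide the organelle. In the kidney, peroxisomes are abundant in proximal tubule cells, which draw most of their energy from fatty acids. The nuclear receptor encoded by Ppara induces many of the genes of peroxisomal oxidation.

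RNA came from proximal tubules of mice aged 20 weeks on a normal diet, isolated by Percoll density centrifugation, and each of 12 samples was hybridised to its own Affymetrix array. The groups, of 3 samples each, were wild type, catalase-Tg (carrying a catalase transgene), dB/dB, and dB/dB catalase-Tg (both). dB/dB mice carry a leptin receptor without its long signalling form and develop obesity with diabetes. The transgene in published work on such mice is rat catalase under the kidney androgen-regulated protein (Kap) promoter, which is active in proximal tubule cells; the labels give no promoter, sex or strain. The labels do not say that the 3 samples of a group came from separate animals. The p-values here thus set group differences against the spread of these samples only, and that spread may be technical. In such bulk samples, fewer cells of a type and less RNA per cell cannot be told apart.

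The probe set for mouse catalase (Cat) read 10.66, 12.68 and 12.43 in wild type, 11.98, 12.42 and 12.39 in catalase-Tg, 12.24, 12.36 and 12.56 in dB/dB and 11.78, 12.64 and 12.90 in dB/dB catalase-Tg, all in log2. The transgenic groups did not stand above their controls on it, at 0.34 (SE 0.48, adjusted p = 0.843) without and 0.06 (SE 0.48, adjusted p = 0.972) with the dB/dB background. The second Cat probe set gave 0.44 and 0.68 there, each with SE 0.57, and adjusted p of 0.822 and 0.685. Whether these probe sets detect the transgene is not given in the sources used here, so they do not check the labels. All 23 listed proximal tubule markers passed the filter. A mean score of those markers, in log2 relative to the 12-array mean, was -1.92 on wild type 1, against 0.51 and 0.34 on the other wild-type arrays, and it was the lowest of its group on catalase-Tg 1 (-0.11) and on dB/dB catalase-Tg 1 (-0.33). Catalase-Tg 1, wild type 1 and dB/dB catalase-Tg 1 had the smallest weights, 0.287, 0.227 and 0.172, when limma estimated the quality of each array. Kap itself read 8.63 on wild type 1 and 8.46 on catalase-Tg 1, and between 11.70 and 15.29 on the other 10 arrays. Xist, transcribed from the inactive X chromosome, read 11.91 on wild type 2 and 6.72 on wild type 3, while the Y-linked Eif2s3y read 2.30 on wild type 2 and 7.88 or more on the other 11. Further Xist probe sets read 8.62 and 9.88 on wild type 2 but 2.74 and 3.67, under the filter level, on wild type 3. Wild type 2 thus had a female pattern, and wild type 3 had both signals, with Xist on its brightest probe set only. Xist read 2.31 to 2.67 in the other groups, so every comparison with wild type also differs in sex pattern. The medians of the 39 genes and the counts of genes that passed are given with and without these arrays where the arrays moved them most.

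From the RefSeq promoter table for GRCm38.p6, windows of 31 of the 39 genes were used, with 37 start sites. Of the 250 bases before each start, 25 of 37 member windows (67.6%) held the GC box GGGCGG on either strand, against 32.7% of all 32851 windows of that length. The CCAAT box was in 16 (43.2%), against 33.8%, and the TATA box TATAAA in 3 (8.11%), against 12.4%. The nuclear receptor element AGGTCA was in 3 (8.11%, at Pex11g, Scp2 and Slc27a2), against 14%, and its direct repeat with 1 base between, AGGTCANAGGTCA, was in 0 of 37 and in 11 of all windows (0.0335%). The direct repeat holds AGGTCA within it, so both counts overlap. These matches are descriptions of letters in a window, not of binding.

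The following windows are shown because the results turn on Decr2 and on the paired thiolase genes Acaa1a and Acaa1b, and because Slc27a2 held an AGGTCA element. Decr2 lies at chr17:26090165-26090414, minus strand, Slc27a2 at chr2:126552774-126553023, plus strand, Acaa1a at chr9:119341044-119341293, plus strand, and Acaa1b at chr9:119157094-119157343, minus strand. Each is the 250 bases before the start, read 5′ to 3′ on the gene's strand, with capitals for the AGGTCA element, the GC box and the CCAAT box or their reverse complements.
Decr2: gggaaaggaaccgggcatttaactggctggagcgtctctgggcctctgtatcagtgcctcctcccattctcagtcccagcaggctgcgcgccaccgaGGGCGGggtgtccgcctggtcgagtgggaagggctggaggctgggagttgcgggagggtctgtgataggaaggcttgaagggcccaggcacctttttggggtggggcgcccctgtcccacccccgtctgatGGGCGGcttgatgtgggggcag
Slc27a2: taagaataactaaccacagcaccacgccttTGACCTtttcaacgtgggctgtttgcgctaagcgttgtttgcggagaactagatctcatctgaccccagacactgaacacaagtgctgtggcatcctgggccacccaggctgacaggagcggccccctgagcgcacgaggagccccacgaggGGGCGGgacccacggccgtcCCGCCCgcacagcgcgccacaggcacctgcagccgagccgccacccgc
Acaa1a: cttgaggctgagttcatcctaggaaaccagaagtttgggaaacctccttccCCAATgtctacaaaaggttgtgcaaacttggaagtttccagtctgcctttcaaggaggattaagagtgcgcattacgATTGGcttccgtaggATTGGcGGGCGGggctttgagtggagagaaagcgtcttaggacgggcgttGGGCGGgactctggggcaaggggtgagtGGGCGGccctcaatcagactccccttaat
Acaa1b: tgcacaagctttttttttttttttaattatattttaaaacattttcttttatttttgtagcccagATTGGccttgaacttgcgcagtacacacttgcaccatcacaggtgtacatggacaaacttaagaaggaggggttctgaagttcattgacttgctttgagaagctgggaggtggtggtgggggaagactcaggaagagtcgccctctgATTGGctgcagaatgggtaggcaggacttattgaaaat
Decr2 held 2 GC boxes, no CCAAT box and no AGGTCA, with 66.0% G and C. Slc27a2 held 2 GC boxes and an AGGTCA element on the opposite strand (printed as its reverse complement) beginning 220 bases before the start. Acaa1a held 3 GC boxes and 3 CCAAT boxes with 53.6% G and C, whereas Acaa1b held 0 GC boxes and 2 CCAAT boxes with 41.6%.

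Across the arrays the 39 genes mostly went together, with wide ranges inside the groups. The mean of the 39, in log2 relative to the 12-array mean of each gene, was -0.76, 0.42 and 0.23 in wild type, -0.23, 0.56 and 0.57 in catalase-Tg, -0.33, -0.61 and -0.21 in dB/dB, and -0.59, 0.42 and 0.54 in dB/dB catalase-Tg. The 3 dB/dB arrays were all below 0, and the other groups each had 1 array below 0 and 2 above it. Wild type 1 was the lowest array of its group for 33 of the 39 genes, catalase-Tg 1 for 34 and dB/dB catalase-Tg 1 for 37. The range within a group exceeded the range of the 4 group means in 36 of 39 genes, the exceptions being Pex11g, Decr2 and Mlycd. The median range within a group over the 39 genes was 0.53 in dB/dB, 0.77 in catalase-Tg, 0.89 in wild type and 1.17 in dB/dB catalase-Tg.

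**Figure D1:**
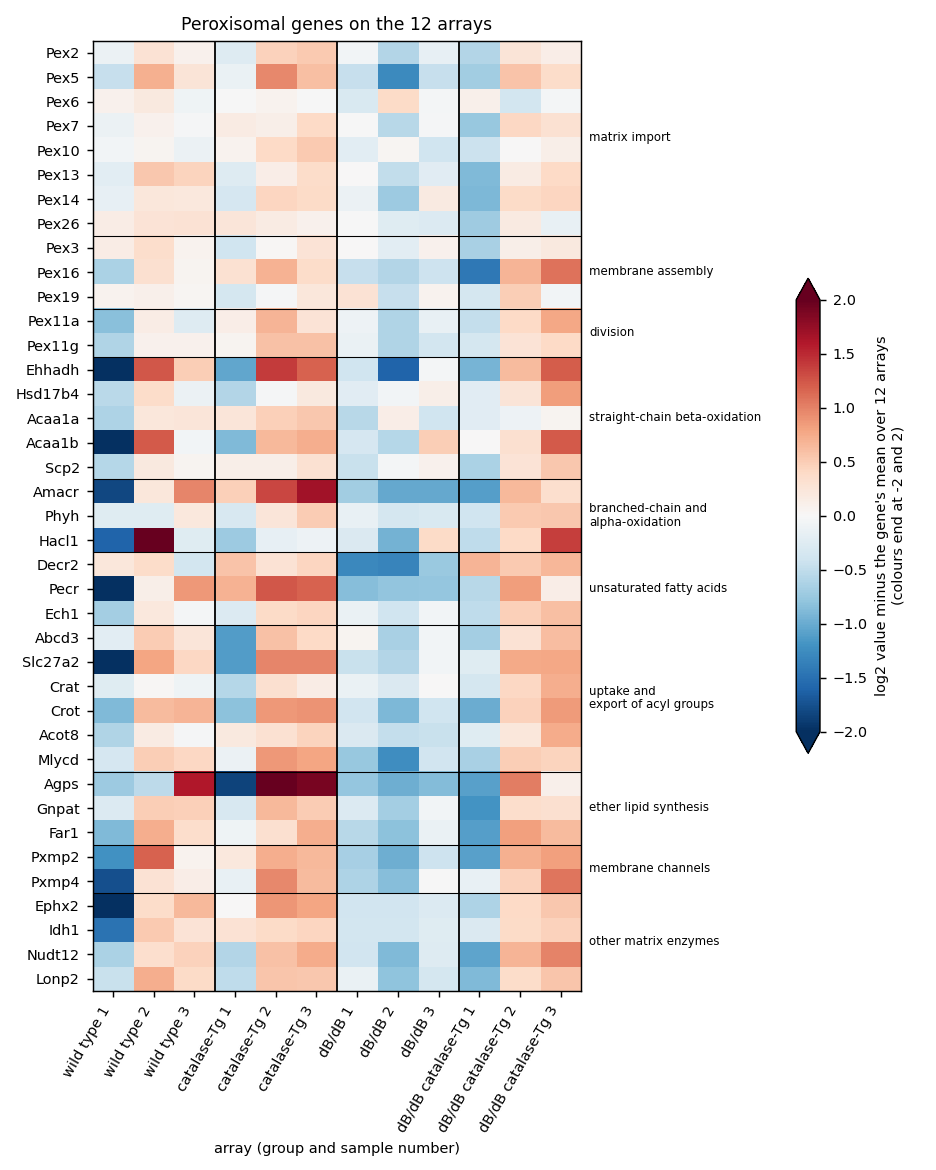
Each row is 1 of the 39 genes and each column 1 of the 12 arrays, coloured by the log2 difference from the 12-array mean of that gene, with the colour scale ending at -2 and 2. The columns of wild type 1, catalase-Tg 1, dB/dB catalase-Tg 1 and the 3 dB/dB arrays are mostly below the mean.

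The proximal tubule markers had the sign of the 39 genes on all 12 arrays. The proximal tubule marker score was -1.92, 0.51 and 0.34 in wild type, -0.11, 0.73 and 0.73 in catalase-Tg, -0.39, -0.54 and -0.28 in dB/dB, and -0.33, 0.65 and 0.60 in dB/dB catalase-Tg. The endothelial score (15 of 15 markers passing) was 1.27, 0.81 and 1.69 on the dB/dB arrays and 1.48, -0.83 and -1.17 on the dB/dB catalase-Tg arrays. It was 1.46, -1.36 and -0.13 in wild type and 0.03, -1.69 and -1.57 in catalase-Tg. The log2 of the summed level of the endothelial markers ranged over 9.15 to 12.32 in wild type, 8.62 to 10.75 in catalase-Tg, 11.65 to 12.40 in dB/dB and 9.24 to 12.11 in dB/dB catalase-Tg. The podocyte markers (8 of 8) gave 8.72 to 13.11, 8.98 to 9.38, 11.20 to 13.31 and 8.88 to 11.68 in the same order. Mural cell and fibroblast markers passed for 7 of 10, with Col1a1, Col3a1 and Dcn below the filter, and leukocyte markers for 4 of 12, with Cd68, Itgam, Emr1, Cd3e, Cd79a, C1qa, C1qb and Laptm5 below it. All 12 loop of Henle and distal tubule markers passed, their summed level (log2) ranging over 14.30 to 16.63 in wild type, 13.62 to 14.33 in catalase-Tg, 16.23 to 16.46 in dB/dB and 15.62 to 16.18 in dB/dB catalase-Tg. Collecting duct markers passed for 6 of 11, with Aqp2, Avpr2, Scnn1b, Scnn1g and Foxi1 below it. The part of these cells in the results that follow was not tested. Only 2 fits with a covariate were run, either the proximal tubule score or an other-cell score averaged over podocyte, endothelial and mural markers. The latter holds no loop or distal tubule marker. The other-cell score was 1.96, -1.7 and 0.59 in wild type and -0.78, -1.7 and -1.78 in catalase-Tg. In dB/dB it was 1.66, 0.71 and 2.16, and in dB/dB catalase-Tg 1.45, -1.15 and -1.43. Both scores come from the same arrays as the 39 genes and differ between groups, so these fits cannot separate cell content from levels within cells.

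**Figure D2:**
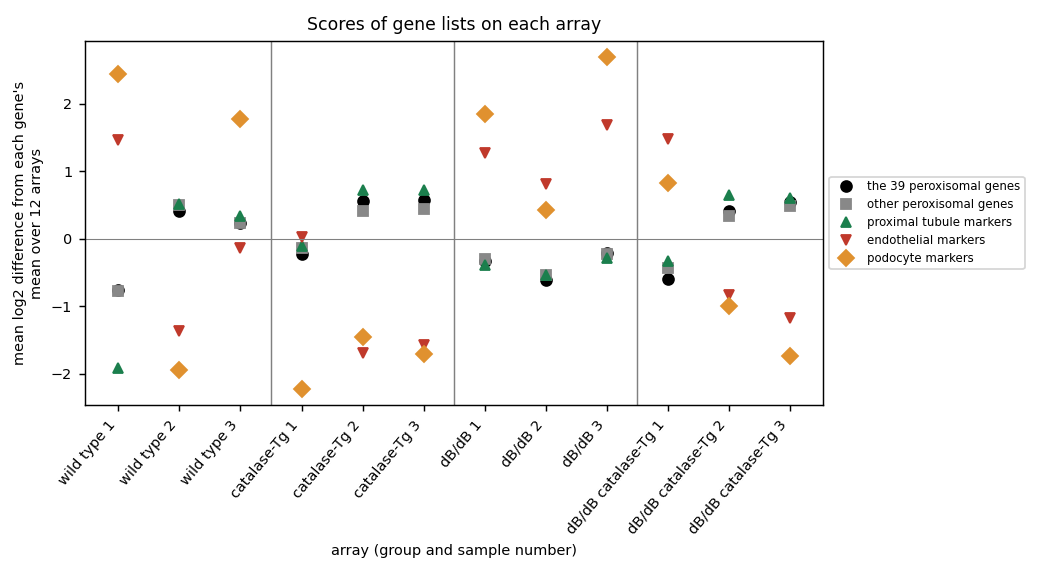
Mean log2 difference from the 12-array mean for the 39 genes and for marker lists of proximal tubule and other cells, 1 point per array, by group. The 39 genes lie lowest on wild type 1 (-0.76) and highest on catalase-Tg 3 (0.57), and the proximal tubule markers reach -1.92 on wild type 1.

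Among the enzymes for unsaturated fatty acids, Decr2 separated the dB/dB arrays from all the others. Decr2 is the peroxisomal 2,4-dienoyl-CoA reductase, which removes a double bond before oxidation can go on. It read 7.24, 7.39 and 6.65 in wild type, 7.58, 7.30 and 7.44 in catalase-Tg, 5.72, 5.69 and 6.27 in dB/dB and 7.69, 7.54 and 7.68 in dB/dB catalase-Tg. The 3 dB/dB arrays, at 5.69 to 6.27, lay below the other 9, at 6.65 to 7.69. The group means were 7.09 ± 0.39, 7.44 ± 0.14, 5.89 ± 0.33 and 7.64 ± 0.09 (SD, n = 3). The difference of dB/dB from wild type was -1.20 (SE 0.23, adjusted p = 0.728), and that of dB/dB catalase-Tg from dB/dB was 1.74 (SE 0.23, adjusted p = 0.143). Neither passed, though among 18144 probe sets these had the 9th and the 2nd smallest p. With transgene and dB/dB crossed, the interaction was 1.40 (SE 0.33, adjusted p = 1), the 13th smallest p, and the average transgene difference was 1.04 (SE 0.16, adjusted p = 0.106). Over all the alternative settings tried, dB/dB catalase-Tg against dB/dB ran from 1.63 to 1.93 with adjusted p from 0.00182 to 0.879. The smallest came with array weights, where 6989 of 18144 probe sets passed. Leaving out 1 array at a time gave an adjusted p of 0.0706 to 0.879 in limma. Decr2 was measured by a single probe set.

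Pecr, the peroxisomal trans-2-enoyl-CoA reductase, read 9.31, 11.54 and 12.29 in wild type, 12.12, 12.67 and 12.60 in catalase-Tg, 10.57, 10.63 and 10.64 in dB/dB and 10.86, 12.26 and 11.56 in dB/dB catalase-Tg. The dB/dB arrays were nearly level and all lay below the dB/dB catalase-Tg arrays, while wild type 1 was far below its group. Catalase-Tg differed from wild type by 1.42 (SE 0.63, adjusted p = 0.544), or by 0.55 without wild type 1, and dB/dB catalase-Tg from dB/dB by 0.95 (SE 0.63, adjusted p = 0.644). Ech1, an isomerase for double bonds, spanned 11.17 to 12.46 and differed by -0.02 between dB/dB and wild type and by 0.39 from dB/dB to dB/dB catalase-Tg. All 3 genes of this role were below 0 in the former comparison and above 0 in the latter, with medians of -0.43 and 0.95.

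Among genes that activate, export or clear acyl groups, Mlycd and Acot8 had the smallest p. Mlycd, which breaks down malonyl-CoA, read 5.38, 6.21 and 6.13 in wild type, 5.61, 6.58 and 6.51 in catalase-Tg, 4.96, 4.47 and 5.34 in dB/dB and 5.07, 6.21 and 6.17 in dB/dB catalase-Tg. All dB/dB arrays lay below all wild-type arrays, but dB/dB 3 lay above dB/dB catalase-Tg 1. The differences were -0.98 (SE 0.40, adjusted p = 0.767) for dB/dB against wild type and 0.89 (SE 0.40, adjusted p = 0.636) in dB/dB catalase-Tg against dB/dB. Mlycd is also found in mitochondria and the cytosol.

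Acot8, a thioesterase that frees fatty acids from CoA inside the peroxisome, read 6.80, 7.56 and 7.38 in wild type, 7.60, 7.70 and 7.85 in catalase-Tg, 7.11, 6.93 and 6.96 in dB/dB and 7.16, 7.63 and 8.15 in dB/dB catalase-Tg. The transgenic arrays lay above their controls without overlap on either background, by 0.47 (SE 0.27, adjusted p = 0.608) for catalase-Tg against wild type and 0.64 (SE 0.27, adjusted p = 0.636) in dB/dB catalase-Tg against dB/dB. The latter was 0.39 without dB/dB catalase-Tg 3, and the average transgene difference of 0.56 (SE 0.19, adjusted p = 0.201) did not pass. Slc27a2, a very long-chain acyl-CoA synthetase and the most variable of the other genes in this role, spanned 11.10 to 14.32. Abcd3, a transporter of acyl-CoAs into the organelle, and the carnitine acyltransferases Crat and Crot spanned 10.12 to 11.86, 7.48 to 8.78 and 8.31 to 10.19. All 6 genes of this role had differences above 0 in dB/dB catalase-Tg against dB/dB, with a median of 0.66, and 0 of 6 when dB/dB was set against wild type, the median being -0.32.

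**Figure D3:**
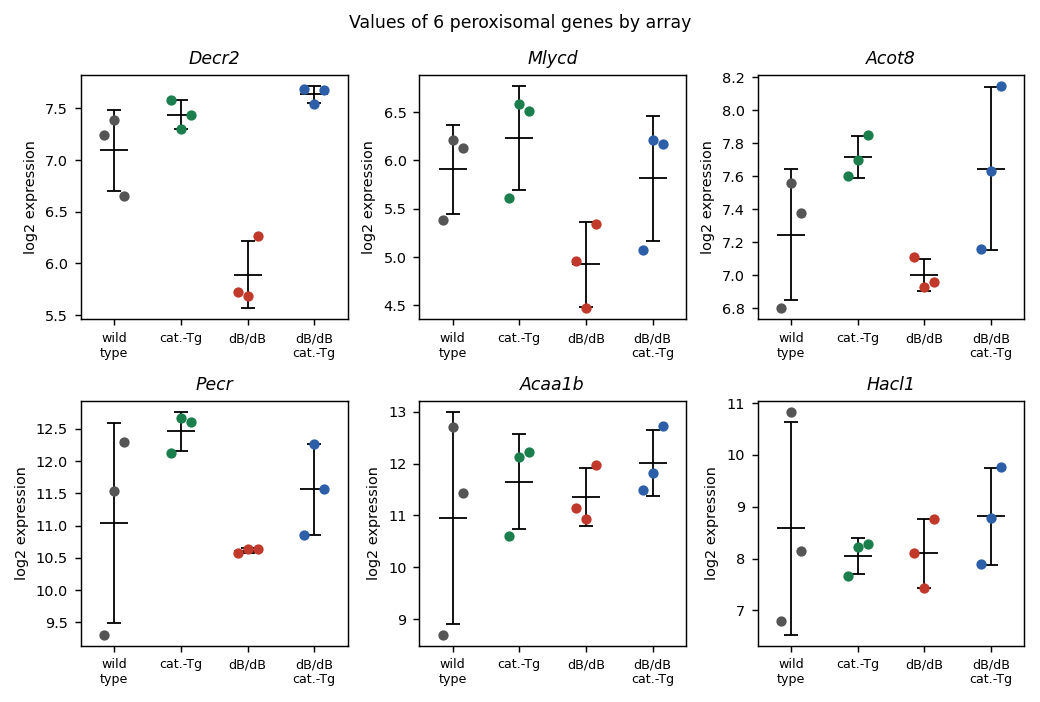
Log2 level of Decr2, Mlycd, Acot8, Pecr, Acaa1b and Hacl1 on each of the 12 arrays (points) with the mean and SD of each group (n = 3), where cat.-Tg stands for catalase-Tg. The 3 dB/dB arrays of Decr2, from 5.69 to 6.27, lie below the other 9, while the wild-type arrays of Acaa1b span 8.70 to 12.71.

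The straight-chain oxidation genes varied more within groups than between them. Acaa1b, a thiolase that cuts the shortened chain, read 8.70, 12.71 and 11.43 in wild type, 10.60, 12.13 and 12.22 in catalase-Tg, 11.15, 10.92 and 11.98 in dB/dB and 11.49, 11.81 and 12.72 in dB/dB catalase-Tg. The groups overlapped, and the wild-type arrays ran from the lowest value, 8.70, to 12.71. Its near-identical neighbour Acaa1a, read on a probe set whose suffix marks possible cross-hybridisation, gave 6.62, 7.45 and 7.48 in wild type, 7.47, 7.70 and 7.77 in catalase-Tg, 6.67, 7.36 and 6.84 in dB/dB and 7.0, 7.13 and 7.28 in dB/dB catalase-Tg. All 3 dB/dB catalase-Tg arrays lay below the 3 catalase-Tg arrays, with a difference of -0.51 (SE 0.26, adjusted p = 0.745). Signal of Acaa1a and Acaa1b cannot be told apart on shared probes.

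Ehhadh, the bifunctional enzyme of the classical inducible pathway, read 7.71, 11.11 and 10.36 in wild type, 8.84, 11.27 and 11.06 in catalase-Tg, 9.48, 8.28 and 9.84 in dB/dB and 8.95, 10.51 and 11.09 in dB/dB catalase-Tg. Its 3 lowest values were on wild type 1, dB/dB 2 and catalase-Tg 1, and dB/dB catalase-Tg differed from dB/dB by 0.99 (SE 0.95, adjusted p = 0.718). Hsd17b4, the other bifunctional enzyme, spanned 10.25 to 11.67 and Scp2, a sterol carrier with thiolase activity, 12.41 to 13.58. All 5 genes of this role were above 0 in dB/dB catalase-Tg against dB/dB (median 0.34) and 2 of 5 in dB/dB against wild type (median -0.03).

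In branched-chain and alpha-oxidation, Amacr, the racemase that prepares methyl-branched and bile acid intermediates, read 8.57, 10.61 and 11.36 in wild type, 10.86, 11.73 and 12.06 in catalase-Tg, 9.69, 9.36 and 9.36 in dB/dB and 9.28, 11.03 and 10.73 in dB/dB catalase-Tg. Wild type 1 and dB/dB catalase-Tg 1 had the lowest values, and dB/dB overlapped both wild type and dB/dB catalase-Tg. Catalase-Tg differed from wild type by 1.37 (SE 0.67, adjusted p = 0.572), or by 0.57 without wild type 1, and dB/dB catalase-Tg from catalase-Tg by -1.20 (SE 0.67, adjusted p = 0.762). Hacl1, which cleaves the 2-hydroxy acyl-CoA that Phyh makes from phytanic acid, had the widest range of the 39 genes, 4.04. It read 6.79, 10.83 and 8.15 in wild type, 7.66, 8.22 and 8.29 in catalase-Tg, 8.10, 7.44 and 8.77 in dB/dB and 7.89, 8.79 and 9.77 in dB/dB catalase-Tg. Wild type 2, the array with Xist at 11.91, had the highest Hacl1 and wild type 1 the lowest. The Hacl1 interaction was 1.25 (SE 1.22, adjusted p = 1) and became 0.13 without wild type 2 and -0.55 with wild type 2 and wild type 3 set aside. Phyh spanned only 11.32 to 12.26.

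Among the matrix import peroxins, Pex5, the receptor for most imported enzymes, read 5.34, 6.51 and 6.05 in wild type, 5.66, 6.76 and 6.40 in catalase-Tg, 5.34, 4.53 and 5.34 in dB/dB and 5.10, 6.36 and 6.17 in dB/dB catalase-Tg. The dB/dB arrays reached 5.34, the value of wild type 1, and dB/dB catalase-Tg 1 lay at 5.10 among them. The difference of dB/dB from wild type was -0.89 (SE 0.44, adjusted p = 0.767), and of dB/dB catalase-Tg from dB/dB 0.81 (SE 0.44, adjusted p = 0.636). Pex26, the membrane anchor of the export ATPases, read 5.62, 5.74 and 5.76 in wild type, 5.72, 5.64 and 5.56 in catalase-Tg, 5.46, 5.23 and 5.19 in dB/dB and 4.76, 5.65 and 5.32 in dB/dB catalase-Tg. All dB/dB arrays lay below all wild-type arrays, with a difference of -0.41 (SE 0.22, adjusted p = 0.767), and the averaged dB/dB difference was -0.41 (SE 0.15, adjusted p = 0.389).

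Pex7, the receptor for a smaller class of enzymes including thiolase and Agps, read 9.22, 9.43 and 9.32 in wild type, 9.50, 9.45 and 9.73 in catalase-Tg, 9.33, 8.78 and 9.31 in dB/dB and 8.58, 9.75 and 9.64 in dB/dB catalase-Tg. Catalase-Tg lay above wild type without overlap, but by only 0.24 (SE 0.29, adjusted p = 0.816). Pex10, a ubiquitin ligase that recycles the receptor, gave 6.21, 6.32 and 6.14 in wild type, 6.34, 6.66 and 6.79 in catalase-Tg, 6.06, 6.30 and 5.86 in dB/dB and 5.84, 6.27 and 6.38 in dB/dB catalase-Tg. Here too catalase-Tg lay above wild type without overlap, by 0.37 (SE 0.20, adjusted p = 0.594), and dB/dB catalase-Tg 3 at 6.38 overlapped catalase-Tg. The other import genes, Pex2, Pex6, Pex13 and Pex14, had differences of -0.50 to -0.05 for dB/dB against wild type and -0.12 to 0.20 in dB/dB catalase-Tg against dB/dB. All 8 import genes were below 0 in dB/dB catalase-Tg against catalase-Tg, with a median of -0.27.

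The genes for membrane assembly, Pex3, Pex16 and Pex19, had the smallest median of the roles in dB/dB catalase-Tg against dB/dB, 0.07. Their differences there were -0.07, 0.61 and 0.07. Of the genes for division, Pex11g read 5.47, 6.16 and 6.16 in wild type, 6.14, 6.66 and 6.67 in catalase-Tg, 5.94, 5.48 and 5.71 in dB/dB and 5.73, 6.36 and 6.47 in dB/dB catalase-Tg. Its values overlapped in every pair of groups sharing a background or a transgene, with catalase-Tg 1 at 6.14 just under the 6.16 of wild type 2 and wild type 3. The average transgene difference was 0.52 (SE 0.19, adjusted p = 0.218), and for the other division gene, Pex11a, which peroxisome proliferators induce, it was 0.59 (SE 0.25, adjusted p = 0.249).

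In ether lipid synthesis, Agps, which makes the ether bond, read 5.70, 5.90 and 8.03 in wild type, 4.57, 8.56 and 8.32 in catalase-Tg, 5.65, 5.44 and 5.56 in dB/dB and 5.34, 7.45 and 6.53 in dB/dB catalase-Tg. The dB/dB arrays lay within 0.21 of each other and below all wild-type arrays, but dB/dB catalase-Tg 1 and catalase-Tg 1 were lower still. The difference of dB/dB from wild type was -0.99 (SE 1.01, adjusted p = 0.774). Gnpat, the acyltransferase of the same pathway, spanned 5.62 to 7.47 and Far1, which supplies its fatty alcohol, 9.25 to 11.17. All 3 were below 0 in dB/dB against wild type, with a median of -0.57.

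The membrane channel proteins Pxmp2 and Pxmp4 spanned 7.04 to 9.43 and 5.54 to 8.37, and Pxmp4 had an average transgene difference of 0.94 (SE 0.39, adjusted p = 0.245). The other matrix enzymes were Ephx2, an epoxide hydrolase, Idh1, an isocitrate dehydrogenase shared with the cytosol, Nudt12, a nucleotide hydrolase, and Lonp2, a protease. Their differences ran from -0.65 to -0.02 for dB/dB against wild type and from 0.45 to 0.71 in dB/dB catalase-Tg against dB/dB.

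The comparison of dB/dB with wild type asks what differed with the dB/dB genotype, whose obesity and diabetes cannot be told apart here. Of the 39 genes, 36 had a difference below 0 and 3 above it, and no single gene passed the test. The median difference was -0.31, while over all 9744 genes it was -0.11 with 37.8% above 0. limma called 0 of 39 at an adjusted p of 0.05, with 0 of all 18144 probe sets called (0%). At an unadjusted p of 0.05 it gave 2 lower (5.13%), Decr2 and Mlycd, and 0 higher, against 2.78% and 1.05% of all genes. Arrays did not overlap for 4 genes that were lower, Pex26, Decr2, Mlycd and Agps, and for 0 that were higher, against 8.37% and 2.17% of all genes. The endothelial, podocyte and mural markers had medians of 1.19, 0.96 and 1.59 here, with all 15, 8 and 7 above 0. The loop of Henle and distal tubule markers had 0.96 with 10 of 12 above 0, and the proximal tubule markers -0.02 with 10 of 23 above 0. That last median includes wild type 1, where the proximal tubule score was -1.92. The score was 0.51 and 0.34 on the other wild-type arrays and -0.39, -0.54 and -0.28 in dB/dB. With the other-cell score as a covariate the median of the 39 genes was -0.01, against -0.05 over all genes. With the proximal tubule score it was -0.29, with 6 of 39 above 0, against -0.10 over all genes. Without wild type 1 the median of the 39 genes was -0.71 and without wild type 2 it was -0.13. With catalase-Tg 1, wild type 1 and dB/dB catalase-Tg 1 set aside, 17 of the 39 genes passed as lower (43.6%), against 17.8% of all genes. These arrays were the lowest of their groups for 34, 33 and 37 of the 39 genes. dB/dB 2, the lowest of dB/dB for 29 of them, was kept, so this count is no independent support.

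Catalase-Tg against wild type asks what differed with the transgene outside the dB/dB background. There 30 of 39 genes were above 0 with a median of 0.31, against -0.04 and 45.6% over all genes. limma called 0 of 39 (0.0220% of all probe sets). At an unadjusted p of 0.05 it gave only Pecr, higher (2.56%), and 0 lower, against 2.73% and 7.57% of all genes. Pex7, Pex10 and Acot8 were higher without overlap and 0 were lower, against 5.87% and 8.73% of all genes. The proximal tubule markers had a median of 0.69 (22 of 23 above 0), the endothelial markers -1.09 (1 of 15), the podocyte markers -2.73 (0 of 8) and the loop of Henle and distal tubule markers -1.85 (1 of 12). Without wild type 1 the median of the 39 genes was 0. With the other-cell score as a covariate the median of all genes was -0.11 and that of the 39 genes -0.20. With the proximal tubule score the median of all genes was -0.10 and that of the 39 genes was -0.16. With wild type 2 and wild type 3 set aside it was 0.89 and 6 genes passed as higher (15.4%, against 5.77% of all genes), wild type then being a single array assumed to vary like the other groups.

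What differed with the transgene on the dB/dB background is asked by comparing dB/dB catalase-Tg with dB/dB. Here 36 of 39 genes were above 0 with a median of 0.49, against -0.02 and 47.4% over all genes. Only Pex6, Pex3 and Pex26 were below 0, at -0.12, -0.07 and -0.05. Further probe sets above the filter gave 0.12 and 0.06 for Pex6 and 0.25 for Pex3, so these signs depend on the probe set. The probe set used for Pex6 has a suffix that marks possible cross-hybridisation. Of all 25 further probe sets of the 39 genes, 19 had the sign of the one used. limma called 0 of 39 (0.00551% of all probe sets), and 3 at an unadjusted p of 0.05 as higher (7.69%) and 0 as lower, against 1.98% and 5.60% of all genes. These were Decr2, Acot8 and Mlycd. Decr2, Pecr and Acot8 were higher without overlap and 0 were lower, against 5.03% and 11.8% of all genes. The proximal tubule markers had a median of 0.83 (22 of 23), the endothelial markers -1.53 (0 of 15), the podocyte markers -2.51 (0 of 8), the mural markers -1.69 (0 of 7) and the loop of Henle and distal tubule markers -0.65 (1 of 12). With the other-cell score as a covariate the median was -0.15 over the 39 genes and -0.09 over all genes. With the proximal tubule score it was 0.02 over the 39 genes and -0.07 over all genes. Without a covariate, the median of the 39 genes was 0.81 when dB/dB catalase-Tg 1 was left out and 0.24 without dB/dB catalase-Tg 3. With estimated array weights 24 of the 39 genes passed as higher (61.5%, against 19.5% of all genes), and 23 (59.0%, against 16.5%) with catalase-Tg 1, wild type 1 and dB/dB catalase-Tg 1 set aside. Those 3 arrays were the lowest of their groups for most of the 39 genes, so these counts are no independent support.

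**Figure D4:**
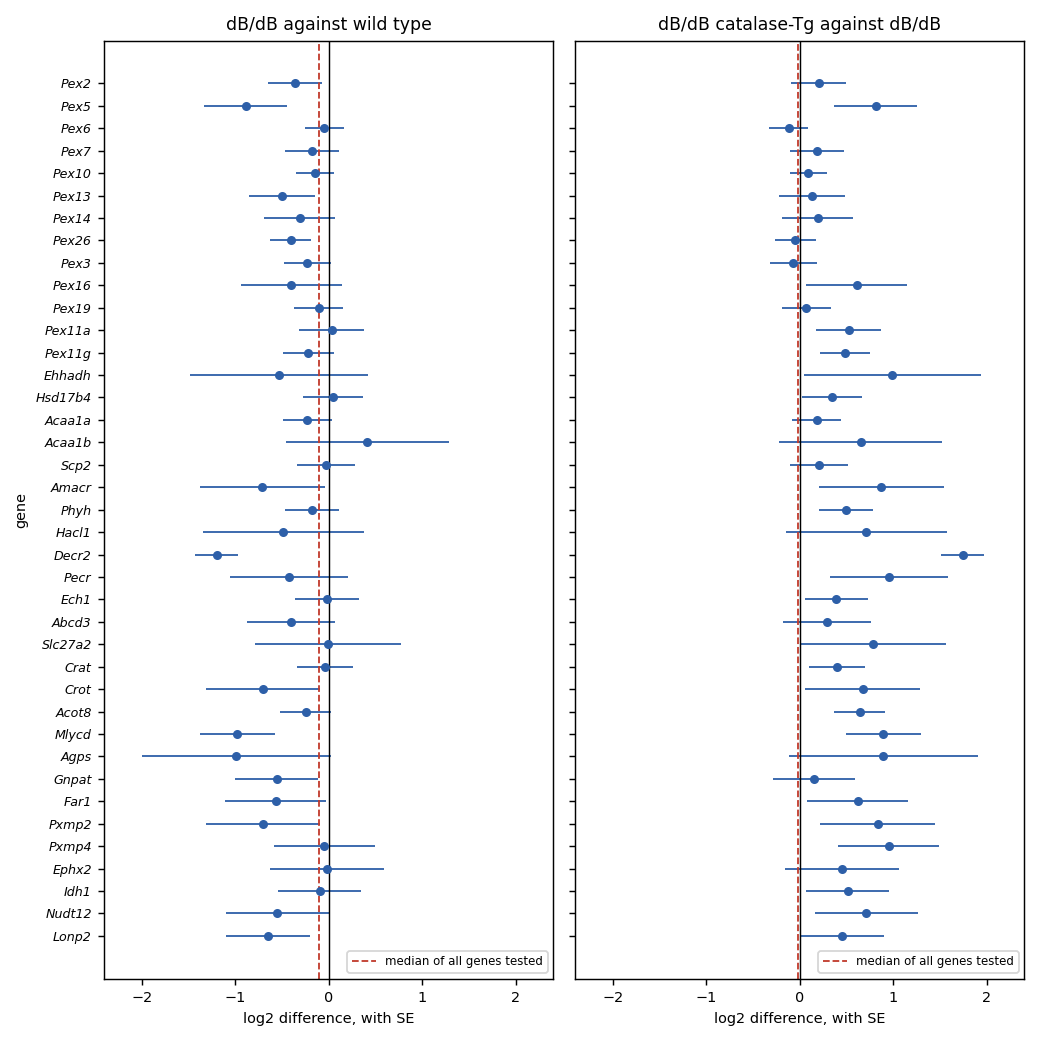
Log2 difference with its SE for each of the 39 genes in dB/dB against wild type and in dB/dB catalase-Tg against dB/dB, with a dashed line at the median of all genes (-0.11 and -0.02). The dB/dB arrays enter both comparisons. Most of the genes lie left of 0 in the former (36 of 39) and right of 0 in the latter (36 of 39), with Decr2 farthest at -1.20 and 1.74.

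Setting dB/dB catalase-Tg against catalase-Tg asks what differed with the dB/dB genotype when both groups carry the transgene. In it, 10 of 39 genes were above 0 with a median of -0.19, against -0.09 and 39.4% over all genes. limma called 0 of 39 (0.0276% of all probe sets), and 0 at an unadjusted p of 0.05 in either direction (3.31% of all genes higher, 3.86% lower). Acaa1a was lower without overlap and 0 were higher, against 9.97% and 7.89% of all genes. Endothelial markers had a median of 1.01 (14 of 15 above 0), podocyte markers 1.22 (8 of 8), loop of Henle and distal tubule markers 2.09 (11 of 12) and proximal tubule markers -0.25 (7 of 23). Without dB/dB catalase-Tg 1 the median of the 39 genes was 0.23. With the other-cell score as a covariate it was 0.14, against -0.05 over all genes, and with the proximal tubule score -0.09, against -0.08.

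The interaction, the transgene difference in dB/dB less that in the others, had a median of 0.15 over the 39 genes with 27 above 0, against 0.02 and 52.4% over all genes. The median was -0.08 without catalase-Tg 1 and -0.40 with wild type 2 and wild type 3 set aside. limma called 0 of 39 (0.00551% of all probe sets), and Decr2 alone was under an unadjusted p of 0.05, as higher (2.56%), with 0 lower, against 0.606% and 0.595% of all genes. Averaged over both states of the transgene, dB/dB gave a median of -0.26 with 5 above 0, 0 of 39 called (0.0165% of all probe sets) and 3 under an unadjusted p of 0.05, Decr2, Pex26 and Mlycd. All 3 were lower (7.69%) and 0 higher, against 7.78% and 5.05% of all genes. With the other-cell score as a covariate the median of the 39 genes was 0.07, against -0.05 over all genes. With the proximal tubule score it was -0.22, against -0.09 over all genes. Without wild type 1, Amacr and Pecr passed as lower in this comparison, with adjusted p of 0.0495 and 0.0363, as did 3.54% of all genes. With array weights 3 passed there as lower (7.69%, against 5.93% of all genes), with the proximal tubule score as a covariate 1 (2.56%, against 1.52%), and with the 3 arrays of lowest weight set aside 10 (25.6%, against 12.9%). Averaged over both backgrounds, the transgene gave a median of 0.42 with 34 above 0 and 0 of 39 called (0.0276% of all probe sets). At an unadjusted p of 0.05 there were 7, all higher: Decr2, Acot8, Pex11g, Pecr, Pxmp4, Pex11a and Amacr. They make 17.9% of the 39, against 6.04% of all genes higher and 14.0% lower. Without wild type 2, Decr2 passed there at 1.12 with an adjusted p of 0.0165, as did 0.564% of all genes as higher. The median of the 39 genes there was -0.14 with the other-cell score as a covariate and -0.04 with the proximal tubule score. Over all genes these were -0.10 and -0.09. With array weights 18 genes passed as higher (46.2%, against 12.8% of all genes), with the 3 arrays of lowest weight set aside 20 (51.3%, against 12.1%), and with wild type 2 and wild type 3 set aside 10 (25.6%, against 8.55%). The 39 genes share their arrays and are not independent of each other, so these shares are descriptions and were not tested against those of all genes. The 3 arrays of lowest weight were the lowest of their groups for most of the 39 genes. Counts that set them aside or weigh them down are therefore no independent support.

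Of the 39 genes, 16 had more than 1 probe set that passed the filter, giving 25 further probe sets. In dB/dB catalase-Tg against dB/dB, 19 of these 25 had the sign of the probe set used, and in dB/dB against wild type 18 of 25. The second probe set of Pex5 went the same way as the first, at 3.74, 2.59 and 3.41 in dB/dB and 2.73, 5.33 and 4.80 in dB/dB catalase-Tg, much of it under the filter level.

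A second list of 65 other peroxisomal genes, of which 54 were on the array and 44 passed the filter, was set beside the 39. Its medians were -0.31 with 6 of 44 above 0 for dB/dB against wild type, 0.11 with 24 above 0 for catalase-Tg against wild type, 0.30 with 33 above 0 in dB/dB catalase-Tg against dB/dB and -0.12 with 19 above 0 for dB/dB catalase-Tg against catalase-Tg. Of its genes only Acbd4, an acyl-CoA binding protein that tethers peroxisomes to the endoplasmic reticulum, passed, and only in the averaged transgene comparison. Acbd4, on a probe set whose suffix marks signal shared with related genes, read 8.43, 8.97 and 9.09 in wild type, 10.19, 10.02 and 9.98 in catalase-Tg, 8.11, 8.32 and 8.31 in dB/dB and 9.38, 9.70 and 9.73 in dB/dB catalase-Tg. Every transgenic array lay above every array without the transgene, and the average difference was 1.29 (SE 0.14, adjusted p = 0.0169). At an unadjusted p of 0.05, dB/dB was lower than wild type for Gstk1, Mpv17l, Dhrs7b and Acbd4, at -0.57, -1.80, -0.71 and -0.58. After Acbd4, the smallest p in catalase-Tg against wild type belonged to Zfand6 (-0.31) and Mpv17 (0.36), and in dB/dB catalase-Tg against dB/dB to Pmvk, an enzyme of isoprenoid synthesis (-0.66), and Acox3, an oxidase for branched chains (2.05). In dB/dB catalase-Tg against catalase-Tg they belonged to Mpv17 (-0.44), Acbd4 (-0.46) and Xdh (0.92).

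Of 15 listed regulators of peroxisomal genes 14 were on the array and 13 passed the filter, Pparg being below it. Med1, a Mediator subunit that coactivates nuclear receptors, was the one that passed, on 1 of its 4 probe sets above the filter. Its brightest probe set read 8.02, 7.98 and 8.03 in wild type, 5.99, 6.12 and 6.32 in catalase-Tg, 8.21, 8.23 and 8.39 in dB/dB and 5.54, 6.17 and 6.32 in dB/dB catalase-Tg. The 6 transgenic arrays lay at 5.54 to 6.32 and the 6 others at 7.98 to 8.39, so this probe set of Med1 fell with the transgene on both backgrounds, with differences of -1.87 (SE 0.21, adjusted p = 0.0146) and -2.27 (SE 0.21, adjusted p = 0.00974). A further probe set of Med1, at 6.42, 6.88 and 6.80 in catalase-Tg and 7.38, 6.58 and 6.83 in wild type, overlapped between the groups. With it, the 3 other Med1 probe sets above the filter gave -0.32, -0.23 and 0.06 in catalase-Tg against wild type and -0.64, -0.23 and 0.07 in dB/dB catalase-Tg against dB/dB, and none passed. Ppara read 7.51, 10.10 and 9.27 in wild type, 10.02, 9.87 and 9.69 in catalase-Tg, 9.13, 8.73 and 9.39 in dB/dB and 8.60, 9.62 and 9.90 in dB/dB catalase-Tg. These values, from its brightest probe set, overlapped between dB/dB and both other groups compared with it. Catalase-Tg differed from wild type by 0.90 (SE 0.56, adjusted p = 0.638). For dB/dB against wild type this probe set gave 0.12, and further Ppara probe sets gave -0.44 and -0.40. In dB/dB catalase-Tg against dB/dB it gave 0.29, and the further ones 0.62 and 0.80. None passed. Hnf4a and Rxra, nuclear receptors of which the latter is a partner of Ppara, differed by 0.97 (SE 0.58) and 0.69 (SE 0.45) in dB/dB catalase-Tg against dB/dB without passing. The coactivators Ppargc1a and Ppargc1b differed by 0.52 (SE 0.38) and 0.57 (SE 0.43) when dB/dB was set against wild type, also without passing. Esrra, a receptor that drives genes of energy metabolism, differed by -0.58 (SE 0.24, adjusted p = 0.767) for dB/dB against wild type and 0.62 (SE 0.24, adjusted p = 0.636) in dB/dB catalase-Tg against dB/dB.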

How the data were processed

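Total RNA of 12 samples, 3 in each of 4 groups taken from the labels, was measured on 12 Affymetrix mouse arrays, 1 sample an array. The values deposited by the authors are log2 expression per probe set, made with GCRMA (background correction and normalization between arrays), with limma also named, per the submitters' processing notes; versions are not given in the sources used here. No further normalization was applied. GCRMA draws weak signals toward a floor, here 2.302, so differences near it are compressed. Precision is limited by how many arrays there are.

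Of 45101 probe sets, 64 controls were left out, and of the rest 34945 had 1 gene symbol, 932 several and 9160 none. Those with several named no gene. The 18144 probe sets above 4 on at least 3 arrays entered 1 limma fit (version 3.58.1, R 4.3.3) of all 12 arrays with a mean for each group and the default empirical Bayes settings. The p-values were adjusted by Benjamini-Hochberg over all 18144, with a threshold of 0.05. The 7 comparisons set dB/dB and catalase-Tg each against wild type, set dB/dB catalase-Tg against dB/dB and against catalase-Tg, and took the interaction and both averaged effects. SE is that of the moderated test and SD that of 3 arrays. The fit was tested on simulated data with independent noise for each probe set and array. Such data hold no shift shared by a whole array, so the test does not cover that. Scores are means over a list's genes, each taken relative to its own 12-array mean.

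The members, lists, rules and tests were chosen with earlier results of these data known. Values on all arrays are given for the 3 genes of smallest p in each comparison, the 6 of widest range, the import receptors Pex5 and Pex7 and the near copies Acaa1a and Acaa1b. Of the other peroxisomal genes and regulators, those past the threshold and the 3 of smallest p in the comparisons discussed are named, with Cat and Ppara; a few more were named after their values were seen. Alternatives were other filters, other normalization, other estimates of spread, array weights, a replicate block and leaving out each array. Setting aside catalase-Tg 1, wild type 1 and dB/dB catalase-Tg 1 together, setting aside wild type 2 and wild type 3, and marker scores of other cells or of proximal tubule as covariates were added after seeing the data. Arrays with the same replicate number were compared by the correlation of their deviations from the group means. It was 0.396, 0.2 and 0.308 between catalase-Tg and wild type and 0.607, 0.453 and 0.426 between dB/dB catalase-Tg and catalase-Tg. It was 0.165, 0.145 and 0.097 between dB/dB and wild type, and -0.045, -0.13 and 0.11 for dB/dB catalase-Tg with dB/dB. Array 2 with array 3 gave 0.357 and 0.241 between catalase-Tg and wild type. Between dB/dB catalase-Tg and catalase-Tg it gave 0.558 and 0.411. Array 1 with array 2 or 3 gave -0.385 to -0.256 in the former and -0.587 to -0.485 in the latter. The positive values there are thus not particular to equal replicate numbers. The labels do not explain the numbers. The fit has no block; the replicate block was run as an alternative for all 7 comparisons. Promoter windows are from RefSeq, GRCm38.p6; those of Hsd17b4, Pxmp2, Pex19, Amacr, Pex2, Crat, Ephx2 and Nudt12 were not used here.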

Additional observations from a re-analysis of the deposited data

How the results depend on the processing

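Limits first: 3 arrays a group and the spread between them set what could pass, and 0 of 39 genes passed in any of the 7 comparisons. With the replicate block, that count was again 0 in each comparison, and the block changed no call of the 39 genes. With array weights 24 genes passed in dB/dB catalase-Tg against dB/dB, 3 in the averaged dB/dB effect and 18 in the averaged transgene effect, with 6989, 1975 and 4785 of all 18144 probe sets. With catalase-Tg 1, wild type 1 and dB/dB catalase-Tg 1 set aside, 17 passed in dB/dB against wild type, 23 in dB/dB catalase-Tg against dB/dB, 10 in the averaged dB/dB effect and 20 in the averaged transgene effect, with 4875, 5043, 3515 and 3711 probe sets. Those arrays were the lowest of their groups for most of the 39 genes, so these counts are no independent support. With wild type 2 and wild type 3 set aside, 6 passed in catalase-Tg against wild type and 10 in the averaged transgene effect, with 2180 and 3375 probe sets, and the medians were 0.89 in catalase-Tg against wild type and -0.40 in the interaction, where Hacl1 was -0.55. With the proximal tubule score as a covariate, 1 gene, Amacr, passed in the averaged dB/dB effect, with 553 probe sets. The medians were then -0.16 in catalase-Tg against wild type and -0.04 in the averaged transgene effect, against -0.10 and -0.09 over all genes. They were -0.29 in dB/dB against wild type and -0.22 in the averaged dB/dB effect, against -0.10 and -0.09 over all genes. With the other-cell score, the medians were -0.20 in catalase-Tg against wild type, -0.15 in dB/dB catalase-Tg against dB/dB, -0.14 in the averaged transgene effect, 0.14 in dB/dB catalase-Tg against catalase-Tg and 0.07 in the averaged dB/dB effect. Over all genes they were -0.11, -0.09, -0.10, -0.05 and -0.05 in the same order. The causes were not tested.

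Leaving out 1 array at a time gave 0 to 2 genes in the averaged dB/dB effect (2 without wild type 1, with 1246 probe sets), 0 to 1 in the averaged transgene effect (1 without wild type 2, with 969) and 0 in the others. The medians then ran from -0.71 to -0.13 in dB/dB against wild type, 0 to 0.53 in catalase-Tg against wild type, 0.24 to 0.81 in dB/dB catalase-Tg against dB/dB, -0.42 to 0.23 in dB/dB catalase-Tg against catalase-Tg, -0.08 to 0.50 in the interaction, -0.41 to -0.06 in the averaged dB/dB effect and 0.23 to 0.63 in the averaged transgene effect. Centring each array on its median moved the median of all genes in dB/dB against wild type from -0.11 to -0.17 and that of the 39 genes to -0.37, and quantile normalization to -0.02 and -0.21.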

Other observations

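Genes outside the 39, from the second list, showed the same wide spread on single arrays. They were chosen after their values were seen, and none passed in a comparison. Acox2, the oxidase for branched chains and bile acid intermediates, read 3.56, 8.02 and 7.43 in wild type, 4.82, 8.33 and 8.48 in catalase-Tg, 5.78, 4.38 and 6.97 in dB/dB and 6.60, 8.56 and 9.53 in dB/dB catalase-Tg. Wild type 1 was lowest at 3.56. Acot12, on that list though an acetyl-CoA thioesterase of the cytosol, read 3.04, 8.44 and 8.28 in wild type and 6.60, 5.42 and 7.03 in dB/dB, with wild type 1 again lowest. Acot4, a peroxisomal thioesterase, read 3.43, 7.49 and 6.06 in wild type, 6.81, 7.08 and 7.05 in catalase-Tg, 4.93, 3.69 and 4.90 in dB/dB and 4.27, 7.17 and 7.21 in dB/dB catalase-Tg, so dB/dB overlapped wild type and dB/dB catalase-Tg through wild type 1 and dB/dB catalase-Tg 1.

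Hao2, a hydroxy acid oxidase, and Acot3, another thioesterase, were highest or nearly so on wild type 2, as was Hacl1. Hao2 read 9.44, 14.24 and 12.01 on the wild-type arrays, against 11.02 to 12.94 on the other 9. Acot3 read 3.78, 8.51 and 5.22 in wild type and 5.31, 6.80 and 8.65 in dB/dB catalase-Tg, on a probe set whose suffix marks signal shared with related genes. Wild type 2 was the array with Xist at 11.91.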
